A study of Mus musculus with 8 samples.

Results

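Very long protein-coding genes were taken as the mouse RefSeq protein-coding genes on chromosomes 1 to 19 whose annotated span is at least 400 kb. There were 338 of them among 20665 protein-coding genes, 1.64% of the genes and 23.6% of the summed gene length. They spanned 400.4 to 2271 kb with a median of 565 kb, and 4 exceeded 2 Mb. The 2412 genes of 50 to 100 kb, with a median of 68.3 kb, were the reference class. Length alone chose the genes, so no peak value entered the choice.

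The peak lists come from ChIP-seq, in which DNA fixed to a protein is pulled down with an antibody and sequenced. The cells were primary cultures of hippocampal neural progenitors of male C57BL/6 mice. All libraries share this strain, sex and culture; the labels name no further treatment, no genotype change and no age. Mgea5 is the hydrolase that takes O-linked N-acetylglucosamine off proteins, Panx2 is a channel protein of the pannexin family, and Polr1c is a subunit that RNA polymerase I has in common with RNA polymerase III. Each of these 3 proteins had 2 replicate libraries. The other 2 of the 8 samples were input libraries, which were not analysed here. Peak lists hold no expression values, so the labelled cell type could not be checked against marker genes.

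Genes of this size owe their length mostly to introns. In mammals many of them encode proteins of the nervous system, among them cell adhesion molecules of synapses, receptors for neurotransmitters and receptors that guide axons, and several lie at common fragile sites, where DNA breaks under replication stress. RNA polymerase II, which does not contain Polr1c, needs hours to cross such a gene. Many have further promoters deep inside the gene that start shorter transcripts. Promoters of mammalian genes fall broadly into those rich in CpG, a C followed by a G, and those poor in it.

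The promoters of 5 of these genes are shown because in some lists, though not in all, peaks at start sites went with CpG content. Another reason is that both promoters at a gene's outer start and promoters inside the gene carried peaks. The 5 promoters were chosen, after their values were seen, among the genes named by the rule given with the methods. Each is the RefSeq sequence (GRCm38.p6, the mm10 assembly) of up to 250 bases before an annotated start site, on the strand of the gene and 5′ to 3′, with every CpG in capitals. For Nbea, which encodes neurobeachin, a protein of membrane traffic, the minus-strand sequence chr3:56183749-56183951 holds 23 CpG and stops at the outer end of the gene. For Dpp6 and Dpp10, which encode partner subunits of Kv4 potassium channels, the promoters lie inside the gene, 445 kb (chr5:27261685-27261934, plus strand, 10 CpG) and 800.3 kb (chr1:124045560-124045809, minus strand, 14 CpG) from its outer start. For Pde4b, a cyclic AMP phosphodiesterase, the promoter lies 483 kb inside (chr4:102569810-102570059, plus strand) and holds 1 CpG. For Hdac9, a histone deacetylase, the outer promoter (chr12:34917096-34917345, minus strand) holds 0 CpG.
Nbea: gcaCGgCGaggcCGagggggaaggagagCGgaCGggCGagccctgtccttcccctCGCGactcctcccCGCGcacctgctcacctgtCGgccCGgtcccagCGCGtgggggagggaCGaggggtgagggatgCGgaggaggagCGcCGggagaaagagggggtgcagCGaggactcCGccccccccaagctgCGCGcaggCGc
Dpp6: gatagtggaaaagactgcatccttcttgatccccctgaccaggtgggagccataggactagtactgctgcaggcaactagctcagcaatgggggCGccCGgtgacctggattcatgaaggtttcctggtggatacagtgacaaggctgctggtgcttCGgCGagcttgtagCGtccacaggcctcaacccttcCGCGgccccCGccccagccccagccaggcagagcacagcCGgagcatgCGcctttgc
Dpp10: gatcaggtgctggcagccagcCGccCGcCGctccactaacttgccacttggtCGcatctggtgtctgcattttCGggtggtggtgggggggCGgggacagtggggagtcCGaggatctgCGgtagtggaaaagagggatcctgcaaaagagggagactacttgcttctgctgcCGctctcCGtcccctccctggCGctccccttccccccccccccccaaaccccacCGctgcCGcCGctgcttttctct
Pde4b: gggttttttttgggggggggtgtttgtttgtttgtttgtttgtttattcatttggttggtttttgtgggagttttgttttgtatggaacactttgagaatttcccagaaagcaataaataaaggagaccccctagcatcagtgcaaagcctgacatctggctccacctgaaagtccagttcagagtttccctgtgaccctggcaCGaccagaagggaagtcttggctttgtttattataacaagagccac
Hdac9: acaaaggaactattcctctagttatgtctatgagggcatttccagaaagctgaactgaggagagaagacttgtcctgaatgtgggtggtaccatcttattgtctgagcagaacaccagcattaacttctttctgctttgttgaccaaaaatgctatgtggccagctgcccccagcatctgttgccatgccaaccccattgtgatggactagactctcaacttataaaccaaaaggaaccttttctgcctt

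These promoters differed in the lists that covered them, counted over the 300 bases from 250 before to 50 after the start site. The Nbea promoter lay under a peak of Mgea5 replicate 2 (fold 1.58), Panx2 replicate 2 (fold 3.14) and Polr1c replicate 2 (fold 4.47, q = 0.000580). The fold and q are the authors' values for single peaks, a ratio of ChIP to background and a false discovery rate, and are set side by side only within a list. The inner Dpp6 and Dpp10 promoters lay under peaks of both Mgea5 lists, Panx2 replicate 2 and Polr1c replicate 2, with a Polr1c fold of 3.06 (q = 0.498) at Dpp6 and 3.75 (q = 0.00910) at Dpp10. The inner Pde4b promoter had peaks in both Polr1c lists (fold 2.76 and 2.22, q = 1 in both) and in no other list. The Hdac9 promoter had none in any of the 6 lists. The Nbea, Dpp6 and Dpp10 promoters were thus each covered by lists of all 3 proteins, and those of Pde4b and Hdac9 were not. These promoters were picked partly by their CpG count and by the lists that cover them. Their contrast is therefore an illustration and cannot count as a result.

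The lists differed in length from 826 peaks for Polr1c replicate 1 to 536877 for Mgea5 replicate 1. Their names record 2 calling runs, with Panx2 replicate 1 and Polr1c replicate 1 in one and the other 4 lists in the other. Every comparison was therefore made within a list. The read depth behind the peaks is not given in the sources used here. Chromosome 14 beyond 45 Mb held few peaks in every list, and 11 of the 338 genes lie there.

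The first question was whether the bodies of very long genes hold peaks as densely as those of ordinary genes. Density was the number of peaks with their midpoint in the gene body per 100 kb, summed over the genes of a class. Mgea5 replicate 1 had 20.8 peaks per 100 kb in the long genes and 27.7 in the reference genes, and replicate 2 had 20.9 and 27.1. Panx2 replicate 1 had 6.17 and 6.14, whereas Panx2 replicate 2 had 17.5 and 25.6. Polr1c replicate 1 had 0.0190 and 0.0288, from 45 and 49 peaks, and replicate 2 had 1.01 and 2.39. Thus 5 of 6 lists were sparser in the long genes, and Panx2 replicate 1 had the same density in both classes.

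As ratios of long to reference genes these are, in replicates 1 and 2, 0.750 and 0.772 (Mgea5), 1.00 and 0.684 (Panx2), and 0.661 and 0.422 (Polr1c). The mean log2 ratio was −0.53 ± 0.41 (SD, n = 6 lists). The difference did not pass the threshold of 0.05 (exact two-sided sign-flip permutation test over the 6 lists, p = 0.0625, Benjamini-Hochberg adjusted over 4 tests p = 0.125; the smallest p that 6 lists allow is 0.031). The labels do not state whether replicates are separate cultures, so the p-values measure only the spread between these libraries. The 6 lists are of different proteins and may not be independent, so the test asks only if they share a direction. Within lists the ratio was below 1 on 18 of 19 chromosomes for each Mgea5 list, on 19 of 19 for replicate 2 of Panx2 and of Polr1c, on 11 of the 16 chromosomes with a value for Polr1c replicate 1, and on 10 of 19 for Panx2 replicate 1.

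By the 2 lists of each protein, the mean log2 ratio was −0.39 ± 0.03 for Mgea5, −0.27 ± 0.39 for Panx2 and −0.92 ± 0.46 for Polr1c (SD, n = 2). No pair of proteins differed past the threshold (exact permutation test, 2 lists against 2, which cannot go below 0.33). By the same exact test, the differences were −0.12 for Mgea5 minus Panx2 (p = 1), 0.53 for Mgea5 minus Polr1c (p = 0.33, adjusted 0.5) and 0.65 for Panx2 minus Polr1c (p = 0.33, adjusted 0.5). The share of gene bases under peaks told the same order. Peaks covered 13.1% of the long and 20.1% of the reference gene bodies in Mgea5 replicate 1, 10.8% and 15.4% in Mgea5 replicate 2, 5.31% and 5.31% in Panx2 replicate 1, and 10.4% and 18.6% in Panx2 replicate 2.

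In 4 of the 6 lists (both of Mgea5, and replicate 2 of Panx2 and of Polr1c) density was lower in each longer class of genes above 50 kb, with no break at the 400 kb limit. In Polr1c replicate 2 the density relative to the reference class was 0.840 in genes of 100 to 200 kb, 0.680 in genes of 200 to 400 kb, 0.522 in genes of 400 to 800 kb and 0.300 in the 93 genes of at least 800 kb. In Mgea5 replicate 1 the same classes had 0.985, 0.910, 0.823 and 0.660. Panx2 replicate 1 stayed between 0.982 and 1.01 in these 4 classes. The single genes next to the limit did not follow the order of the classes. Just inside it, Fam189a1 (400.4 kb) had 32.0 Mgea5 replicate 1 peaks per 100 kb and Dst (400.8 kb), which encodes the cytoskeletal linker dystonin, had 32.7, while Ano4 (396 kb), just outside, had 17.4.

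**Figure D1:**
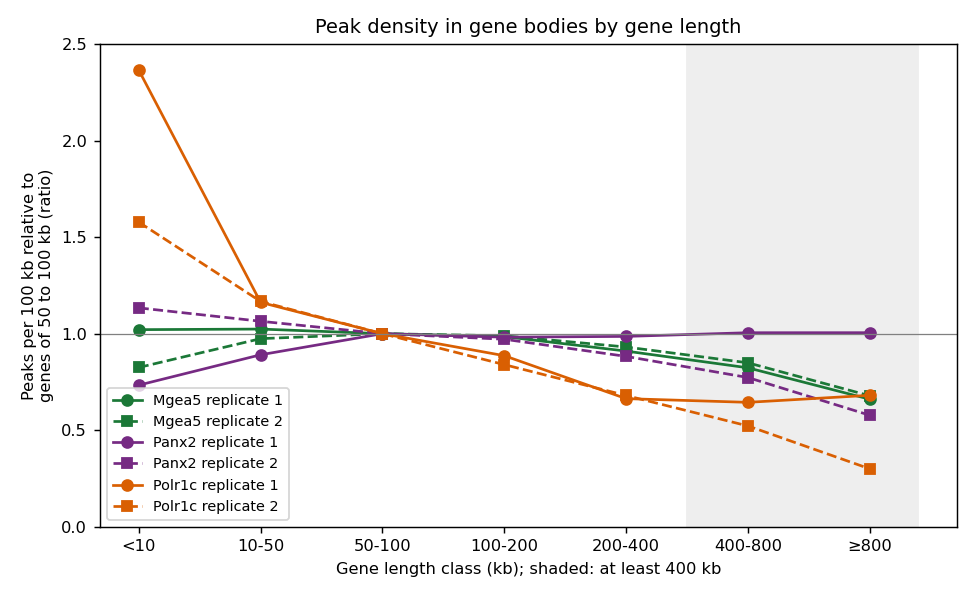
Peaks per 100 kb of gene body relative to genes of 50 to 100 kb (vertical axis, ratio) in 7 classes of gene length (horizontal axis, kb), one line per list; the shaded classes are the genes of at least 400 kb. In the longest class 5 lists lie between 0.300 and 0.681, and Panx2 replicate 1 lies at 1.01.

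Single genes spread widely around these sums. Among the 338 genes, Mgea5 replicate 1 ranged from 0.725 to 36.9 peaks per 100 kb with a median of 23.4, and Panx2 replicate 2 from 1.21 to 37.0 with a median of 18.7. Polr1c replicate 2 ranged from 0 to 5.37 with a median of 0.908. A gene was called sparse for a protein when its density was below the pooled reference density in both replicates. For Mgea5 this held for 203 of 338 long genes (60.1%, against 32.8% of all protein-coding genes), for Panx2 for 121 (35.8%, against 29.1%) and for Polr1c for 270 (79.9%, against 69.5%). In all 6 lists 95 were sparse (28.1%, against 15.2%). The Polr1c share counts genes with no peak at all, which in replicate 1 were 296 of the 338 genes.

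**Figure D2:**
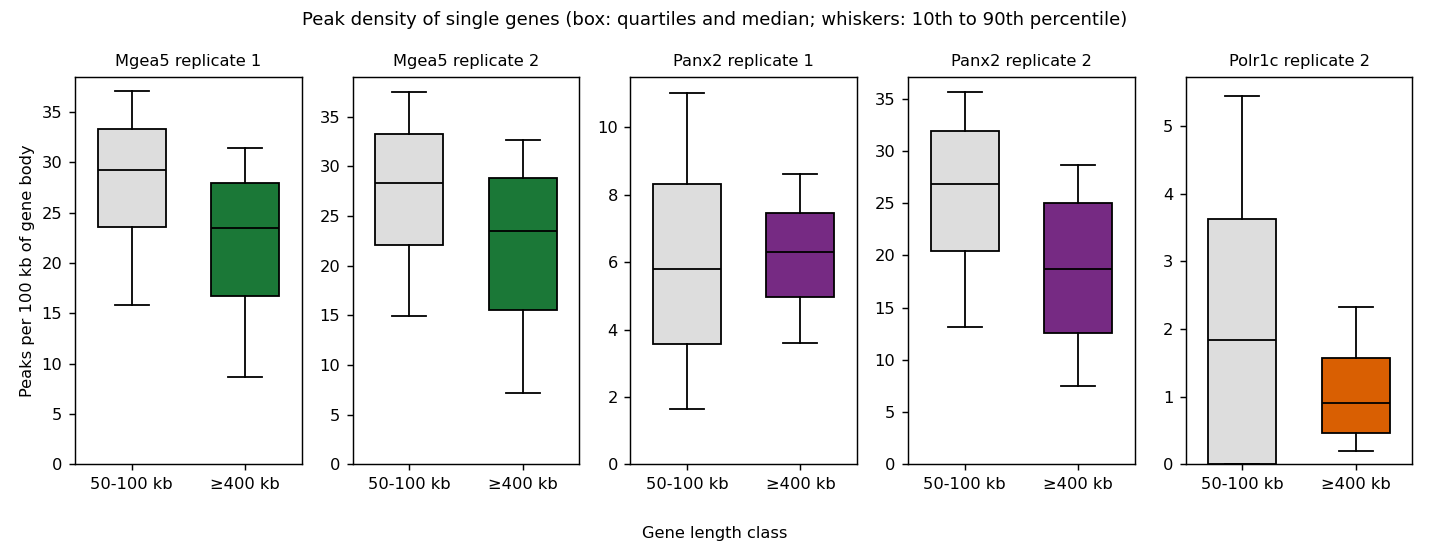
Peaks per 100 kb of gene body of single genes (vertical axis, a separate scale per panel) for genes of 50 to 100 kb (grey, n = 2412) and of at least 400 kb (coloured, n = 338) in 5 lists; boxes give quartiles and median, whiskers the 10th to 90th percentile. Medians of the long genes are lower in 4 panels, and in Panx2 replicate 1 they are 6.30 against 5.78 with a narrower spread in the long genes; Polr1c replicate 1, at 0 for most genes, is not drawn.

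Both Mgea5 lists and replicate 2 of Panx2 and of Polr1c ordered the long genes alike, and replicate 1 of Panx2 and of Polr1c did not. Spearman's rho over the 338 densities, a description of genes that share libraries and base composition, was 0.88 between the Mgea5 replicates and 0.91 between Mgea5 replicate 1 and Panx2 replicate 2. It was 0.83 between Panx2 replicate 2 and Polr1c replicate 2, but 0.15 between the replicates of Panx2 and 0.13 between those of Polr1c, where most genes have no replicate 1 peak. So the rank of a long gene was shared more between 3 different proteins of one calling run than between both libraries of Panx2 or of Polr1c. The lists of the other run, Panx2 replicate 1 and Polr1c replicate 1, had a rho of 0.09 with each other. The part of the calling run in these ranks was not tested.

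The 10 longest genes were Ptprd, Cntnap2, Lsamp, Lrp1b, Macrod2, Dlg2, Csmd1, Nrxn3, Fhit and Ctnna3. Their densities in Mgea5 replicate 1 ran from 8.25 to 26.8 peaks per 100 kb, all under the reference density of 27.7. Cntnap2 (chr6:45060061-47301393), a neurexin-like adhesion protein of axons, was the sparsest of them in both Mgea5 lists and in Panx2 replicate 2, but not in the other lists. It had 8.25 and 7.45 peaks per 100 kb in the Mgea5 replicates, 5.31 and 6.07 in the Panx2 replicates and 0 and 0.357 in the Polr1c replicates. Its values were below the reference in all 6 lists. Fhit (chr14:9550092-11162061), a fragile-site hydrolase outside the peak-poor stretch of chromosome 14, was the densest in every list but Polr1c replicate 1. It had 26.8 and 25.9, 9.49 and 18.7, and 0.0620 and 1.24 in the same order. Ptprd, a synaptic receptor phosphatase and the longest of all at 2271 kb, had 16.2 and 16.4 in the Mgea5 replicates, 6.74 and 11.8 in the Panx2 replicates and 0 and 0.617 in the Polr1c replicates. Ptprd and Cntnap2 are thus of nearly equal length, yet the densities of Ptprd were well above those of Cntnap2 in both Mgea5 lists and in Panx2 replicate 2.

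At the upper end of the mean rank over the 6 lists stood Nbea, Hmcn1, Lrrc7, St6galnac3 and Maml3, of which Nbea, Lrrc7, St6galnac3 and Maml3 lie on chromosome 3. Maml3 (chr3:51687320-52105319), a coactivator of Notch signalling, had 33.3 and 33.5 peaks per 100 kb in the Mgea5 replicates, 6.46 and 32.3 in the Panx2 replicates and 0.239 and 3.59 in the Polr1c replicates. All 6 values exceeded the reference density, but the gene was picked for its high rank in these same lists. Its Polr1c replicate 1 value rests on 1 peak, as do those of Nbea, Hmcn1, Lrrc7 and St6galnac3. At the lower end stood Klhl1, Hs6st3, Enox1, Gpc5 and Pcdh9, all in the peak-poor stretch of chromosome 14. The 11 long genes there had a median of 3.96 peaks per 100 kb in Mgea5 replicate 1, against 24.2 in the other long genes, and of 0.483 against 6.35 in Panx2 replicate 1. The class ratios without chromosome 14 were 0.745 and 0.768, 0.999 and 0.682, and 0.631 and 0.416, in the order used above. Outside chromosome 14 the sparsest, looked up after their values were seen, were Tmem132d, Dock2, Asic2, Skint6 and Tenm2. Asic2, an acid-sensing ion channel, had 6.80 and 5.51 peaks per 100 kb in the Mgea5 replicates and no peak in either Polr1c list.

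Gene lists by function differed in their medians within the class. Over all 338 genes the median density relative to the reference was 0.845 and 0.866 in the Mgea5 replicates, 1.02 and 0.732 in the Panx2 replicates and 0.380 in Polr1c replicate 2. The 32 synaptic and other cell adhesion genes had 0.774 and 0.796, 1.02 and 0.616, and 0.280, and 22 of the 32 were sparse for Mgea5, where the whole class had 60.1% and all genes 32.8%. The 12 neurotransmitter receptor genes had 0.701 and 0.742, 1.16 and 0.619, and 0.283, with 9 of 12 sparse for Mgea5 (whole class 60.1%, all genes 32.8%). The 14 axon guidance genes had 0.731 and 0.767, 1.09 and 0.618, and 0.277, with 12 of 14 sparse by the same rule. These 3 groups had medians below that of the whole class in both Mgea5 lists and in replicate 2 of Panx2 and of Polr1c. Among them, the glutamate receptor gene Grm8 had 9.53 and 7.91 Mgea5 peaks per 100 kb, and Robo2, a receptor for Slit guidance cues, had 22.9 and 20.3.

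Genes of transcriptional regulators and of progenitors, groups that share Sox5, lay higher in both Mgea5 lists and in replicate 2 of Panx2 and of Polr1c. The 16 transcription factors and chromatin regulators had medians of 1.03 and 1.04 for Mgea5, 0.993 and 1.02 for Panx2, and 0.593 for Polr1c replicate 2, and 4 of 16 were sparse for Mgea5 (whole class 60.1%, all genes 32.8%). The 8 neural progenitor and radial glia genes had 1.11 and 1.19, 1.10 and 1.10, and 0.597, with 1 of 8 sparse. Npas3, a transcription factor of this group, had 31.1 and 36.4 Mgea5 peaks per 100 kb, and Sox5 had 33.9 and 31.6. The exception was Lrp1b, a lipoprotein receptor, with 20.6 and 19.3. Median lengths differed too, from 611 kb for the receptor genes and 644 kb for the regulators to 971 kb for the adhesion genes. The receptor genes lay below the class median and the regulators above it in both Mgea5 lists and in replicate 2 of Panx2 and of Polr1c. In Panx2 replicate 1 this was reversed, with 1.16 for the receptor genes, 0.993 for the regulators and 1.02 for the class. The part of gene length in these medians was not tested. The 14 genes at human common fragile sites, with a median length of 1336 kb, had 0.886 and 0.876, 0.976 and 0.723, and 0.453, near the class as a whole. The remaining lists were 11 cadherins and catenins (0.789 and 0.780 for Mgea5), 15 ion channel genes (0.847 and 0.755), 5 RNA-binding protein genes (0.821 and 0.484), 21 genes of cyclic nucleotide and kinase signalling (0.902 and 1.06) and 8 dystrophin-associated and spectrin genes (0.909 and 1.01). The lists are small and were described only, with no test.

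**Figure D3:**
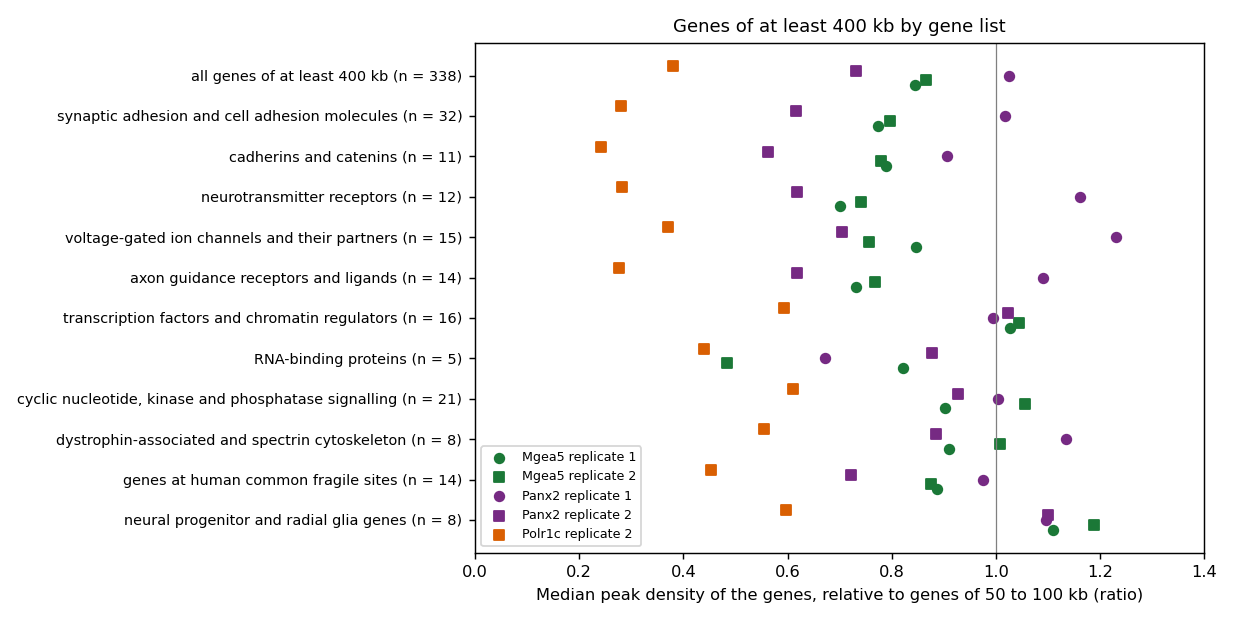
Median peak density of the genes of each list relative to genes of 50 to 100 kb (horizontal axis, ratio) in 5 peak lists, with circles for replicate 1 and squares for replicate 2. Regulator and progenitor genes lie at 0.993 to 1.19 in the Mgea5 and Panx2 lists. Receptor, adhesion and guidance genes lie at 0.616 to 0.796 in the same lists apart from Panx2 replicate 1, where they lie at 1.02 to 1.16.

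In the Mgea5 and Panx2 lists the surroundings of the long genes had densities close to those of their bodies, and the Polr1c lists were further apart. In the 100 kb outside each end Mgea5 had 21.7 and 21.9 peaks per 100 kb, Panx2 6.28 and 19.1, and Polr1c 0.0163 and 1.29. Body over flank gave 0.959, 0.954, 0.984, 0.917, 1.17 and 0.782 in that order (mean log2 ratio −0.07 ± 0.19, SD, n = 6; exact sign-flip permutation p = 0.469, adjusted p = 0.469). The Polr1c replicate 1 ratio rests on 11 flank peaks. With 25 kb outside each end in place of 100 kb, the mean log2 ratio was −0.26, with ratios of 0.536 to 1.02 over the lists. Across the 338 genes, body and flank densities went together except in Polr1c replicate 1, with Spearman's rho of 0.81 and 0.82 (Mgea5), 0.64 and 0.82 (Panx2), and −0.01 and 0.55 (Polr1c). Gene density around them differed from that around the reference genes. A long gene had a median of 5 other protein-coding genes within 500 kb, against 11, and other coding genes filled a median of 11.3% of its flanks, against 48.6%. The part of gene-poor surroundings in the density of the bodies was not tested.

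**Figure D4:**
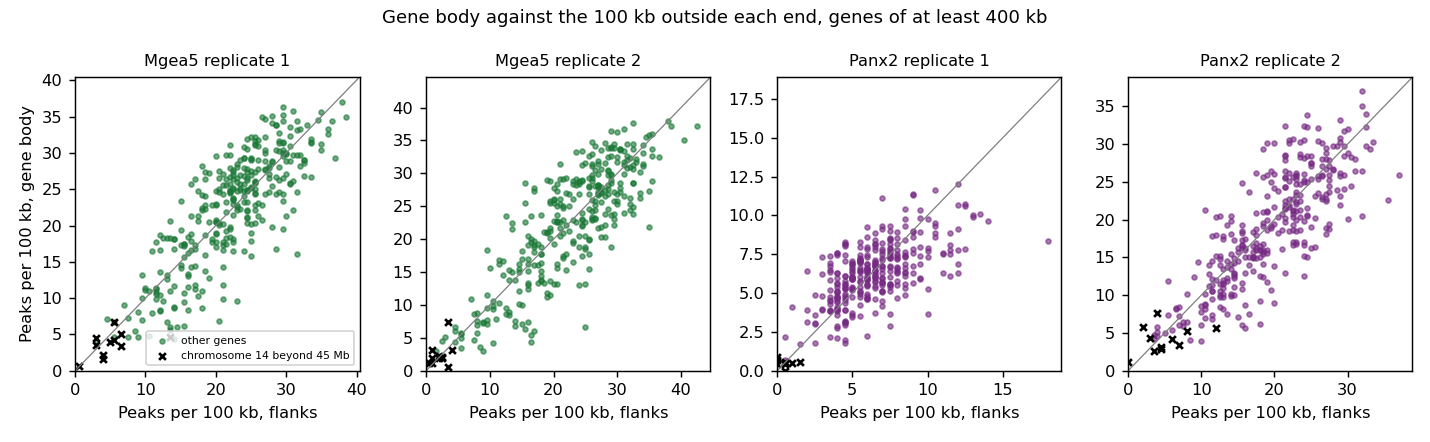
Peaks per 100 kb in the body (vertical axis) and in the 100 kb outside each end (horizontal axis) of the 338 long genes in the 4 broad peak lists, with the line of equality; crosses mark the 11 genes on chromosome 14 beyond 45 Mb. Points follow the line in all 4 panels, with rho of 0.64 to 0.82, and the crosses lie in the lower left corner.

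The second question was where along a long gene the peaks lie. Leaving out 5 kb at each end, the ratio of long to reference genes was 0.755 and 0.769 (Mgea5), 0.997 and 0.692 (Panx2), and 0.811 and 0.446 (Polr1c). All 6 ratios were below 1 (mean log2 −0.46 ± 0.39, SD, n = 6; exact sign-flip permutation p = 0.031, the smallest possible, adjusted p = 0.125). Adjusted over the 4 ratios, this did not pass the threshold. The direction of Panx2 replicate 1 rests on 6.18 against 6.20 peaks per 100 kb, nearly the same density in both classes. Within long genes, the outermost 5 kb compared with the interior gave 1.22 and 1.06, 0.919 and 1.45, and 1.57 and 3.66 (exact sign-flip permutation p = 0.0938, adjusted p = 0.125). The Polr1c replicate 1 value rests on 1 peak.

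Strand was known for the 259 genes with an entry in the promoter table. In the first kb inside their start, Polr1c replicate 2 had 16.6 peaks per 100 kb, against 1.23 at 50 to 100 kb inside. Panx2 replicate 2 had 53.7 against 18.8, and Mgea5 replicate 1 had 44.4 against 21.7. Mgea5 replicate 2 had 23.6 against 21.4, and Panx2 replicate 1 had 4.63 against 6.18. The crowding at starts was thus seen in 3 lists, and the replicates of Mgea5 and of Panx2 did not share it. At the 3′ end the last kb held 0.772 Polr1c replicate 2 peaks per 100 kb, which rests on 2 peaks, against 1.28 at 50 to 100 kb inside that end. Panx2 replicate 2 had 20.5 against 19.7 there, and Mgea5 replicate 1 had 23.9 against 22.9. Between the ends no crowding like that at the starts was seen. Leaving out the first and the last 10% of the gene, and taking the rest in steps of 10%, Mgea5 replicate 1 stayed between 20.1 and 21.5 and Panx2 replicate 2 between 16.8 and 18.8. Mgea5 replicate 2 stayed between 20.5 and 21.8, Panx2 replicate 1 between 6.12 and 6.35 and Polr1c replicate 2 between 0.873 and 1.10. In both Mgea5 lists and in Panx2 replicate 2 the last 10% was the densest step, at 22.4, 22.2 and 19.4.

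By genes, 58 of the 259 (22.4%) had a Polr1c replicate 2 peak within 1000 bp of the start, against 14.1% of all genes of known strand, and 5 (1.93%) had one at the end, against 5.52%. For Panx2 replicate 2 it was 212 (81.9%, all genes 75.7%) at the start and 126 (48.6%, all genes 60.6%) at the end. For Mgea5 replicate 1 it was 199 (76.8%, all genes 71.5%) and 134 (51.7%, all genes 62.4%). The reference genes had 19%, 85.1% and 79.1% at the start and 5.61%, 61.5% and 67.4% at the end, in the order of these lists. So both classes lay above the background at the start, and the long genes lay under the reference genes at the end in all 3 lists, with no test. In the other lists the shares were near the background. Mgea5 replicate 2 had 135 genes at the start (52.1%, all genes 52.4%) and 143 at the end (55.2%, all genes 54.8%), and Panx2 replicate 1 had 33 (12.7%, all genes 13.6%) and 41 (15.8%, all genes 14.5%). Polr1c replicate 1 had 0 at both sides (all genes 0.553% and 0.0911%). Both replicates together, at either end, gave 240 of 338 genes for Mgea5 (71.0%, all genes 67.4%), 71 for Panx2 (21.0%, all genes 21.2%) and 3 for Polr1c (0.888%, all genes 0.552%).

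Among the genes with Polr1c peaks of both replicates at an end were Wwox and Trappc9, whose strand is not in the promoter table. At the low-coordinate end of Wwox, a fragile-site oxidoreductase gene on chromosome 8, the folds were 12.1 (q = 1.94e-24) and 8.25 (q = 1.42e-54). At the high-coordinate end of Trappc9, a gene of vesicle traffic on chromosome 15, they were 5.08 (q = 0.00454) and 7.54 (q = 1.35e-31). Wwox and Trappc9 had a q of at most 0.01 in both replicates, 2 of 338 genes (0.592%, all genes 0.353%). No other coding gene ends within 1 kb of these sites. In the other lists the folds at these sites were between 1.37 and 1.94 where there was a peak, and Panx2 replicate 1 had none.

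Annotated start sites numbered 395 in the 259 genes, and 316 of them lay inside the gene. Of the promoters, 174 (44.1%) held at least 15 CpG in the 300 bases, counted as CG, which reads the same on both strands, against 59.4% of 2538 promoters of reference genes and 48.1% of all 20085 coding promoters. Panx2 replicate 2 covered 151 of the 174 CpG-rich promoters (86.8%, all CpG-rich promoters 67.5%) and 83 of 221 CpG-poor ones (37.6%, all CpG-poor promoters 33.7%). Mgea5 replicate 1 covered 114 (65.5%, all 55.2%) and 73 (33.0%, all 31.1%). Polr1c replicate 2 covered 29 (16.7%, all 9.04%) and 5 (2.26%, all 1.98%). In these 3 lists a CpG-rich promoter of a long gene was under a peak more often than a CpG-poor one. Single promoters departed from this: Nbea had no Mgea5 replicate 1 peak, and the CpG-poor Pde4b promoter had a Polr1c replicate 2 peak. Mgea5 replicate 2 covered 21.3% and 22.2% (all 23.6% and 18.9%) and Panx2 replicate 1 covered 2.3% and 7.24% (all 2.84% and 5.17%), so these lists did not share the pattern. A count of CpG is a description of letters and says nothing of methylation.

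**Figure D5:**
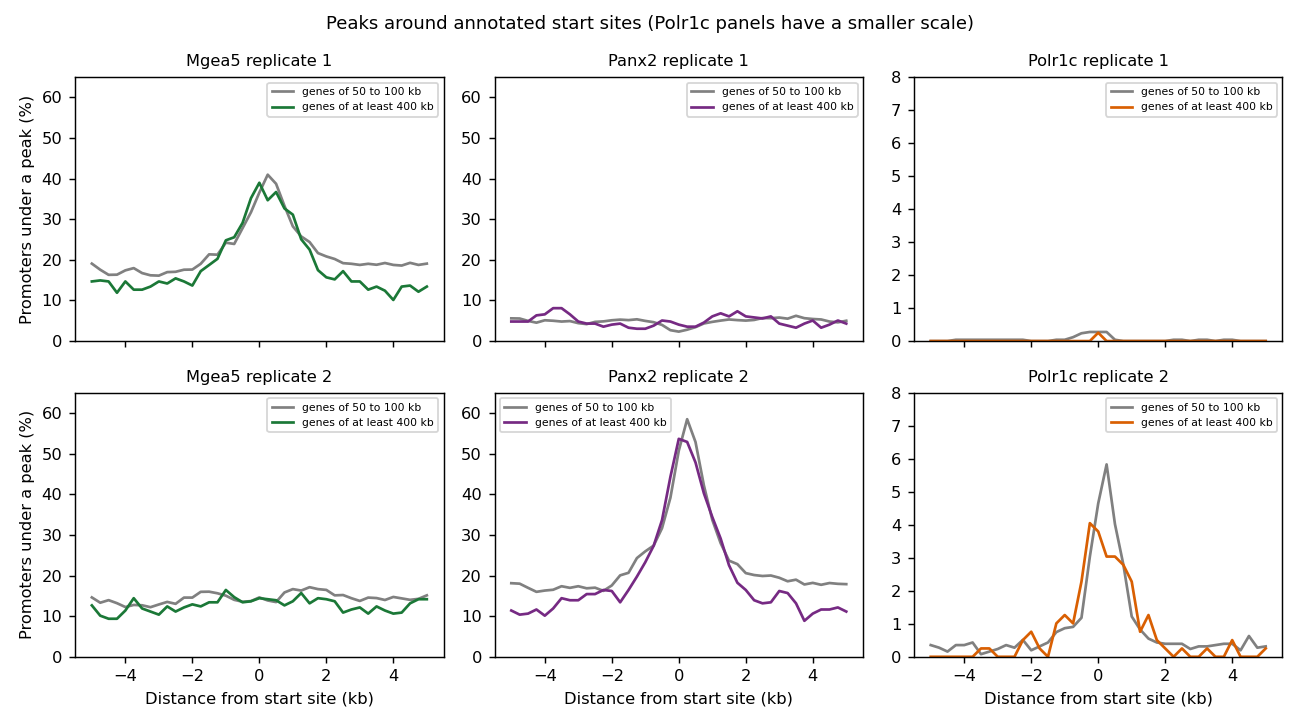
Share of annotated promoters under a peak (vertical axis, %) by distance from the start site (horizontal axis, kb, negative outside the transcript) for 395 promoters of long genes (coloured) and 2538 of genes of 50 to 100 kb (grey), one panel per list, with a smaller scale for Polr1c. At the start site of the long genes the share reaches 39.0% in Mgea5 replicate 1, 53.7% in Panx2 replicate 2 and 3.80% in Polr1c replicate 2, and 14.4% in Mgea5 replicate 2 and 4.05% in Panx2 replicate 1, which have no summit there.

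Promoters counted as inside the gene carried peaks, as those at the outer start did. Only 79 of the 259 genes had a promoter counted at the outer start. The inside class holds all other promoters at any distance, so it can include the outermost promoter of a gene. Promoters deep in the gene were not counted apart. Panx2 replicate 2 covered 51 of 79 promoters at the outer start (64.6%) and 183 of 316 inside (57.9%), against 50% of all coding promoters. Polr1c replicate 2 covered 6 (7.59%) and 28 (8.86%), against 5.37% of all. Some promoters were also covered in the peak-poor stretch of chromosome 14. Of the 7 CpG-rich promoters of long genes there, Panx2 replicate 2 covered 5 (139 of 158 on the other chromosomes), although its median density in those gene bodies was 4.24 peaks per 100 kb against 19.2 in the other long genes. Mgea5 replicate 1 covered 2 of the 7 (106 of 158 elsewhere) and Polr1c replicate 2 covered 2 (24 of 158), while Mgea5 replicate 2 and Panx2 replicate 1 covered 0 (36 and 4 of 158). At Pcdh9, a protocadherin gene in this stretch, the Polr1c replicate 2 peak (fold 6.47, q = 4.69e-18) lay 224 bp from a start site and was the only one of that list in the gene.

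Regions found in both replicates of a protein were fewer per 100 kb in long than in reference genes. Mgea5 had 6.81 such regions per 100 kb in the long and 10.8 in the reference genes, and Panx2 had 1.55 and 2.27. Polr1c had 0.00296 and 0.0141, from 7 and 24 regions. A Polr1c region of both replicates lay in 7 of 338 long genes (2.07%, against 0.421% of all genes, which are far shorter). For the other proteins a shared region was found in 337 long genes for Mgea5 (99.7%, all genes 68.7%) and in 322 for Panx2 (95.3%, all genes 37.8%).

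Of the 7 Polr1c regions, 4 had a q of at most 0.01 in both replicates. In Tshz2, a zinc finger gene, the region chr2:169929990-169930426 had folds of 8.92 and 5.44. In Pde4d, a cyclic AMP phosphodiesterase gene, chr13:109822171-109822617 had 6.72 and 6.23. In Maml2, a Notch coactivator gene, chr9:13534139-13534932 had 6.15 and 4.24, and the fourth was the Trappc9 end. The Tshz2, Pde4d and Maml2 regions lie 298, 1168 and 238 kb from the gene start and 33.0 to 184 kb from the nearest annotated promoter, deep in the gene body. At the Tshz2 region no other list had a peak, at Maml2 only Panx2 replicate 2 (fold 1.71), and at Pde4d both Panx2 lists (1.99 and 1.72). In Anks1b and Dlgap2 the regions had Polr1c folds of 2.76 and 3.72, and of 2.61 and 2.24, and lay under peaks of all 6 lists. The seventh was the inner Pde4b promoter printed above, the only one of the 7 on a promoter of the promoter table. That table gave no promoter for Trappc9 and Dlgap2, so whether their regions lie on the genes' own promoters could not be determined. Whether the regions are exonic or intronic was not determined, since the gene table gives no exons.

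Peaks with a q of at most 0.01 were few in long genes. By replicate, Mgea5 had 0 and 1, Panx2 had 0 and 30, and Polr1c had 4 and 55. Per 1000 peaks, Panx2 replicate 2 had 0.733 in long genes, 0.670 in reference genes and 0.738 outside the long genes, and Polr1c replicate 2 had 23.3, 34.6 and 37.3. Polr1c replicate 1 had 88.9, 163 and 291 in the same order, where the value in long genes rests on 4 of 45 peaks. Outside the long genes the Mgea5 lists had 0.220 and 0.224. The single Mgea5 peak lay in Cacna1d, a calcium channel gene, 163 bp from a start site (fold 2.51, q = 0.00166). In the long genes of known strand, 7 of 41 such Polr1c replicate 2 peaks (17.1%) were within 1 kb of an annotated start site, against 50 of 100 in the reference genes. For Panx2 replicate 2 it was 0 of 24 against 11 of 25. Of all Polr1c replicate 2 peaks, 4.08% in the long and 13.1% in the reference genes were that close to a start site, and of all Panx2 replicate 2 peaks 1.28% and 4.94%. The Polr1c shares of strong peaks were thus above those of all peaks in both classes. Strong peaks far from annotated starts include the highest Polr1c replicate 2 fold, 11.1 in Lrmda (q = 5.17e-34), 17.5 kb from the nearest start site, and the highest Panx2 replicate 2 fold, 5.39 in Adgrb3 (q = 2.2e-06), an adhesion receptor gene, 77.4 kb from one. Peaks themselves were alike in fold, with medians of 1.71 and 1.72 in long and reference genes for Mgea5 replicate 1 and 1.83 and 1.84 for Panx2 replicate 2, and median widths in the same lists were 506 and 568 bp and 476 and 561 bp. In Panx2 replicate 1 the widths were 730 and 724 bp.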

How the data were processed

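Peak lists of 6 ChIP-seq libraries were analysed (Mgea5, Panx2 and Polr1c, 2 replicates each). Per the submitters' processing notes, Trim Galore, Bowtie2 2.3.5 and MACS3 3.0.0a5 were used, and mm10 is the build. The sources used here do not give the MACS3 control, the cut-offs or the sequencing depth. The deposited fold enrichment of a peak is a ratio, and the deposited −log10 p and −log10 q are MACS3's. All were used only within a list. Mgea5 and Panx2 lists have the broad and Polr1c lists the narrow peak layout.

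Gene spans and promoters came from RefSeq tables of GRCm38.p6. The gene table has no strand; 259 of 338 long genes had a strand from the promoter table. Density is peaks by midpoint per 100 kb, summed over genes, on chromosomes 1 to 19; chromosome 14 beyond 45 Mb is sparse in all lists and was left out as an alternative. Ratios of the 6 lists were tested by exact two-sided sign-flip tests, adjusted (Benjamini-Hochberg) over 4 tests with a threshold of 0.05, and proteins by exact permutation of 2 against 2 lists, adjusted over 3 pairs. Scripts were tested on simulated data and used Python 3.11.15, numpy 2.4.6 and pandas 2.3.3.

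Named genes were the 10 longest, the 5 of highest and of lowest mean rank, those with Polr1c regions in both replicates or peaks of q at most 0.01 in both replicates, the genes next to the length limit and the longest of each gene list. The other genes named (Wwox by the gene-end count, and Cacna1d, Lrmda and Adgrb3 by strong peaks) were chosen after their values were seen. The genes and the 11 gene lists were chosen with earlier results of these data known. Alternatives were other peak thresholds, equal list lengths, other lengths, windows and reference genes, counts by overlap, and leaving out lists. Some genes that these rules pick are not reported here.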

Additional observations from a re-analysis of the deposited data

How the results depend on the processing

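Values of the class ratios are mean log2 over lists. The ratio of long to reference genes stayed negative under all 15 alternatives (−1.63 to −0.30) and, without single lists or replicates, from −0.72 to −0.34; in the interior it was −0.77 to −0.37 and −0.69 to −0.24, and the ratio of ends to interior was 0.24 to 4.21 and 0.27 to 0.83. None passed the adjusted threshold, and at a −log10 q of at least 2 the density rests on few peaks. Body over flanks was −1.10 to −0.06, but it was 0.047 without replicate 2 (−0.18 to 0.047 over the libraries left out). No pairing of the replicate numbers is stated, and with the replicate block the differences between proteins were the same (−0.12, 0.53 and 0.65) with p = 1, 0.5 and 0.5 (exact sign-flip permutation, 2 differences, none below 0.5 possible). Without replicate 1 Mgea5 minus Panx2 was 0.17; its range was −0.42 to 0.17, that of Mgea5 minus Polr1c 0.18 to 0.87 and that of Panx2 minus Polr1c 0.60 to 0.70. Genes with peaks of both replicates at an end numbered 153 for Mgea5 and 43 for Panx2 within 500 bp, and 154 for Panx2 within 2500 bp; in replicates 1 and 2 alone there were 300 and 261 (Mgea5), 83 and 302 (Panx2), and 3 and 77 (Polr1c). Shared regions in the long genes fell from 16106 to 3732 (Mgea5) and from 3659 to 663 (Panx2) with a reciprocal overlap of 50%, and numbered 0, 0 and 4 (Polr1c) at a −log10 q of at least 2, set after the data were seen. The lists of one calling run had −0.30 and those of the other −0.65. Read depth, mappability and base composition of the gene bodies were not available to these comparisons, and gene length goes with gene-poor surroundings, so these cannot be told apart.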
